A study of Mus musculus with 6 samples.

Results

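The genes described here are 10 transcripts that are read as markers of macrophages of different origin in injured skeletal muscle. They are 2 markers of monocytes recruited from blood (Ccr2 and Ly6c2), 3 lineage markers shared by monocytes and macrophages at differing levels (Csf1r, Adgre1 and Cx3cr1) and 5 markers of macrophages that live in the tissue (Mrc1, Folr2, Cd163, Lyve1 and Timd4). They were taken by name from the 52369 genes of the deposited table, and all 10 were present in it. They were measured by RNA sequencing of polyadenylated RNA in tibialis anterior muscle, a muscle of the shin, from C57BL/6 mice aged 6 weeks. Cardiotoxin, a venom protein that kills fibres and so sets off regeneration, had been injected into the muscle in mice of 5 weeks (50 µl at 10 µM), per the labels. All 6 muscles then received pcDNA3.1 plasmid (6.25 µg) with an in vivo transfection reagent, for the last time on day 4, and were harvested on day 7. The labels give 3 libraries the genotype control and 3 the genotype Linc-smad7 overexpression, called L7, where Linc-smad7 is a long non-coding RNA. The labels do not say what the plasmid of the control muscles carried, which cells of the muscle took up plasmid, or whether each library came from a separate mouse, so p-values measure only the spread between these libraries.

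After an injury, monocytes that carry the chemokine receptor CCR2 and high levels of the surface protein Ly6C leave the blood and enter the muscle, drawn by ligands such as CCL2 and CCL7. They become macrophages that clear dead fibres, and these later lose Ly6C and take on a repair state. Macrophages already living in the tissue are known by scavenger, folate and phosphatidylserine receptors such as CD163, FOLR2, TIM4 and LYVE1. The mannose receptor MRC1 (CD206) marks them too, and repair macrophages of monocyte origin also make it. LYVE1 is shared with the endothelium of lymphatic vessels, CX3CR1 with natural killer cells and some T cells, and Ly6C with endothelium and T cells.

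Levels are in FPKM, which is fragments scaled by the length of the gene and the depth of the library. The reads in genes numbered 19420012 to 24663153 per library. L7 replicate 3 was unlike the rest. Over genes it correlated with them at 0.920 to 0.951, and scaling by the median of ratios, which puts the typical gene at one level in all libraries, gave it a factor of 0.774 against 1.03 to 1.10 elsewhere. The summed FPKM of 9 genes of adult muscle fibres (such as the actin gene Acta1) was 90812 in it and 20126 to 33159 in the other libraries. The summed FPKM of 18 general macrophage genes (such as the lysozyme gene Lyz2 and the protease gene Ctss) was 4393 in it and 6957 to 10399.5 elsewhere. In a bulk sample, fewer cells of a type and less RNA per cell cannot be told apart, and this holds for every level below.

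The 10 genes spanned levels from 0.239 to 286 FPKM. Ly6c2 had the highest mean over the 6 libraries at 286 FPKM, followed by Adgre1 at 106, Csf1r at 94.0, Ccr2 at 29.6, Mrc1 at 24.2, Cx3cr1 at 7.61, Folr2 at 3.61, Cd163 at 1.37, Lyve1 at 1.13 and Timd4 at 0.239. Most neighbours in this order kept it in 6 of 6 libraries. Adgre1 was above Csf1r in 4 of 6 libraries and Ccr2 above Mrc1 in 4 of 6, and Cd163 was above Lyve1 in 2 of 6, so these pairs were not ordered beyond their spread. The monocyte marker Ly6c2 and the lineage markers Adgre1 and Csf1r were thus the most abundant of the 10 on day 7, the lineage marker Cx3cr1 lay below Mrc1 in 6 of 6 libraries, and 4 of the 5 resident markers were at 5.15 FPKM or less in every library. Mrc1 alone made up 65.0% to 84.4% of the summed FPKM of the 5 resident markers.

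The comparison of control with L7 libraries asks whether the balance of these markers differed with Linc-smad7 overexpression. No marker passed the test, and in all 10 the values of the groups overlapped. The test was limma on log2(FPKM + 1) across the 14788 genes with a mean of at least 1 FPKM, with p-values adjusted by Benjamini-Hochberg and called at 0.05. Timd4 lay under that level, so 9 of the 10 were tested. Of these 9, 0 passed an adjusted p of 0.05, where 0% of all genes did, and 0 had an unadjusted p under 0.05, where 5.9% of all genes did. With limma voom on read counts the same 0 and 0 of 9 were found. Log2 differences are L7 minus control of log2(FPKM + 1), a measure that makes differences of genes at low FPKM look smaller. They were below 0 for 5 of the 9 and above 0 for 4, with a median of -0.03. Over all genes 70.8% were below 0, with a median of -0.15. Median of ratios scaling moved the median of all genes to -0.0029 and that of the 9 markers to 0.14, again with 0 past the threshold. Groups that did not overlap were found in 13.7% of all genes with L7 below and in 5.49% with L7 above.

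**Figure D1:**
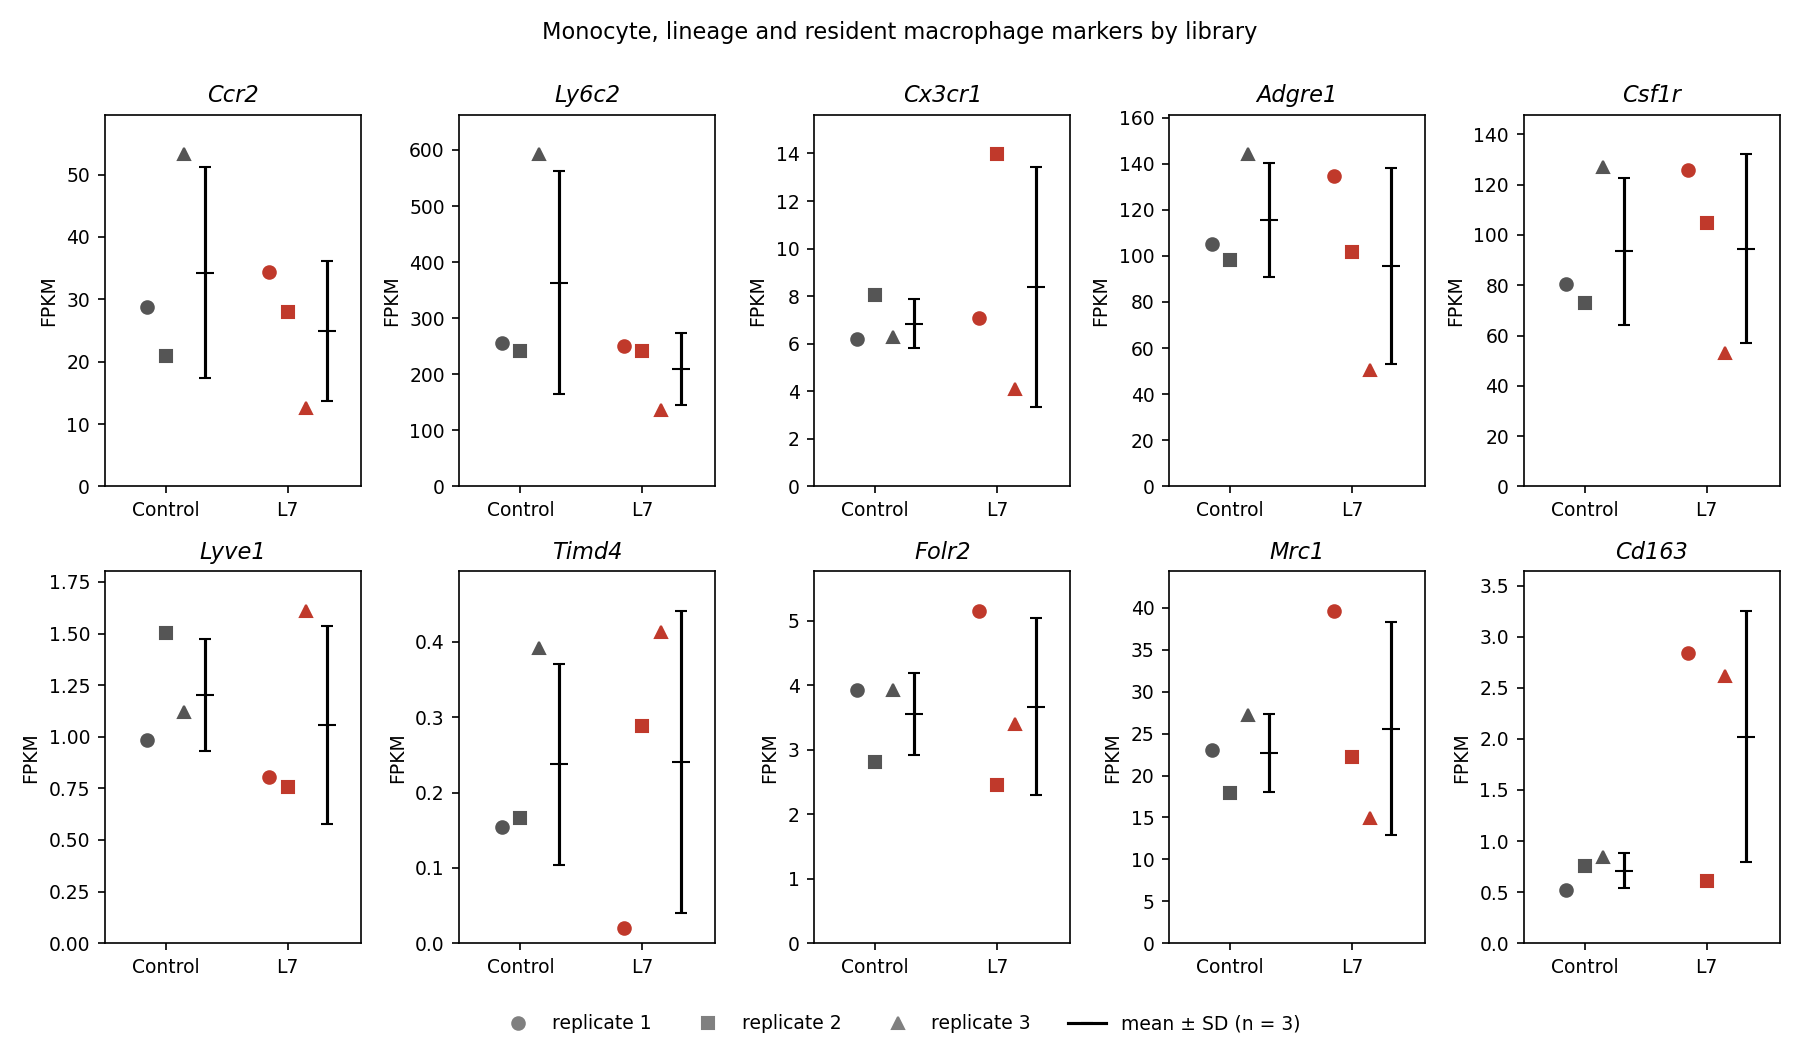
FPKM of each marker (vertical axes, each from 0) in the 3 control and 3 L7 libraries, with the mean and SD beside the points. Control replicate 3 is the highest library for Ccr2, Ly6c2, Adgre1 and Csf1r and L7 replicate 3 the lowest, and in every panel the groups overlap.

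Ccr2 (ENSMUSG00000049103, chr9:124101950-124113557, plus strand, mm10) encodes the receptor that draws monocytes out of bone marrow and into injured tissue. It was at 28.7, 20.9 and 53.2 FPKM in control replicates 1, 2 and 3 and at 34.4, 27.9 and 12.5 FPKM in L7 replicates 1, 2 and 3. The highest value was control replicate 3 and the lowest L7 replicate 3, and the other 4 libraries were mixed between the groups. The means were 34.3 ± 16.9 FPKM for control and 24.9 ± 11.2 FPKM for L7 (SD, n = 3 each). In limma the log2 difference was -0.45 ± 0.44 (SE), with an unadjusted p of 0.338 and an adjusted p of 0.624. Without L7 replicate 3 it was -0.04 and without control replicate 3 it was -0.09, while without control replicate 2 it was -0.74 and without L7 replicate 1 it was -0.73.

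Ly6c2 (ENSMUSG00000022584, minus strand) encodes the Ly6C protein whose high level defines inflammatory monocytes in mice. It lies close to Ly6c1, a near-identical copy that blood endothelium also makes, and the 2 coding sequences are shown because the value of Ly6c2 depends on reads that can be told from those of Ly6c1. Both coding sequences are 393 bases long and differ at 9 of them, an identity of 97.7%, with an unbroken identical run of 188 bases. Of all windows of 50 bases in an annotated transcript of Ly6c2, 33.0% also occur in transcripts of other genes, among them Ly6c1 and Ly6a. Most of the differences, 6 of the 9, lie in the first 90 coding bases, given here 5′ to 3′ from the GENCODE M21 transcripts. Capitals mark the bases that differ, and these coding bases span, with an intron, chr15:75110608-75111667 and chr15:75047450-75048511 (mm10, minus strand).
Ly6c2: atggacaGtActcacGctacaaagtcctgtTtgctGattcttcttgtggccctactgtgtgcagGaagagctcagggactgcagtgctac
Ly6c1: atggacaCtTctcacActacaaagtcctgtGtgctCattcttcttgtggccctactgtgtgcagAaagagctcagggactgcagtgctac
Not given in the sources used here is how reads that match both genes were counted, so both levels are uncertain to that extent. For the other markers at most 2.27% of such windows (Ccr2) occurred in transcripts of other genes, and none for Adgre1, Csf1r, Mrc1, Folr2, Lyve1 and Timd4. The windows were compared on the transcript strand only. Overlaps with exons on the opposite strand, given below for Csf1r, Cx3cr1 and Folr2, are thus not part of these shares.

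The level of Ly6c2 was 256, 242 and 592 FPKM in control replicates 1, 2 and 3 and 251, 242 and 136 FPKM in L7 replicates 1, 2 and 3. The first 2 libraries of each group lay close together, control replicate 3 was far above them and L7 replicate 3 below. The means were 363 ± 198 FPKM (SD, n = 3) and 210 ± 64.1 FPKM (SD, n = 3), with a limma log2 difference of -0.71 ± 0.40 (SE), an unadjusted p of 0.114 and an adjusted p of 0.580. It was -0.43 without L7 replicate 3 and -0.30 without control replicate 3. Ly6c1, read from its own entry in the table, was at 161, 150 and 178 FPKM in control and at 131, 110 and 181 FPKM in L7 libraries. Ly6c1 was thus high where Ly6c2 was low in L7 replicate 3, and the Ly6c2 level was 0.749 of the Ly6c1 level there against 1.59 to 3.32 in the other libraries. The limma log2 difference of Ly6c1 was -0.24 ± 0.21 (SE), with an adjusted p of 0.598.

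Csf1r (ENSMUSG00000024621) encodes the receptor for CSF1 and IL-34 on which most macrophages depend. It was at 80.6, 73 and 127 FPKM in control replicates 1, 2 and 3 and at 126, 105 and 53.0 FPKM in L7 replicates 1, 2 and 3. Each group held both high and low libraries, and the means were close, at 93.5 ± 29.3 FPKM (SD, n = 3) and 94.5 ± 37.5 FPKM (SD, n = 3). Its limma log2 difference was -0.03 ± 0.35 (SE), with an adjusted p of 0.966, and it turned to 0.34 without L7 replicate 3, to 0.21 without control replicate 3 and to 0.14 with median of ratios scaling. In the annotation 15.1% of its exonic bases overlap exons of Hmgxb3 on the opposite strand, and whether the counting used strand was not stated, so reads from the shared bases may not have been told apart.

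Adgre1 (ENSMUSG00000004730, chr17:57358691-57483527, plus strand) encodes F4/80, a surface protein used to identify mouse macrophages. Its levels were 105, 98.1 and 144 FPKM in control replicates 1, 2 and 3 and 135, 102 and 50.4 FPKM in L7 replicates 1, 2 and 3. The libraries stood in the same order as for Ccr2, with control replicate 3 highest and L7 replicate 3 lowest. The means were 116 ± 24.8 FPKM (SD, n = 3) and 95.6 ± 42.5 FPKM (SD, n = 3), with a limma log2 difference of -0.36 ± 0.35 (SE) and an adjusted p of 0.624. Without L7 replicate 3 the difference turned to 0.037.

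Cx3cr1 (ENSMUSG00000052336, chr9:119901616-120069879, minus strand) encodes the fractalkine receptor, which is low on inflammatory monocytes and higher on patrolling monocytes and many tissue macrophages. It was at 6.22, 8.03 and 6.29 FPKM in control replicates 1, 2 and 3 and at 7.08, 14.0 and 4.10 FPKM in L7 replicates 1, 2 and 3. The control libraries were close together, and both the highest and the lowest library were in the L7 group. The means were 6.85 ± 1.03 FPKM (SD, n = 3) and 8.38 ± 5.06 FPKM (SD, n = 3), and limma gave a log2 difference of 0.12 ± 0.37 (SE) with an adjusted p of 0.865, which turned to -0.28 without L7 replicate 2. In the annotation 1.73% of its exonic bases overlap exons of Gm33858 on the opposite strand. In that library the dendritic cell gene Itgax was at 41.2 FPKM, against 8.40 to 32.6 elsewhere, and Cd4 was at 27.0 FPKM, against 13 to 16.9 elsewhere. The natural killer cell gene Ncr1, a marker of other cells that carry CX3CR1, was at 3.16 FPKM in it and at 1.88 to 8.61 elsewhere. The part of these cells in the level of Cx3cr1 was not tested.

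Mrc1 (ENSMUSG00000026712, chr2:14229392-14332057, plus strand) encodes the mannose receptor CD206, which takes up glycoproteins. It was at 23.0, 17.9 and 27.2 FPKM in control replicates 1, 2 and 3 and at 39.6, 22.2 and 15.0 FPKM in L7 replicates 1, 2 and 3. L7 replicate 1 was the highest library and L7 replicate 3 the lowest, with the 3 control libraries inside that range. The means were 22.7 ± 4.65 FPKM (SD, n = 3) and 25.6 ± 12.7 FPKM (SD, n = 3). The limma log2 difference was 0.08 ± 0.34 (SE), with an adjusted p of 0.908, and it turned to -0.28 without L7 replicate 1 and to -0.08 without control replicate 2.

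Cd163 (ENSMUSG00000008845, chr6:124304656-124330527, plus strand) encodes the scavenger receptor for haemoglobin bound to haptoglobin. It was at 0.519, 0.757 and 0.848 FPKM in control replicates 1, 2 and 3 and at 2.84, 0.610 and 2.62 FPKM in L7 replicates 1, 2 and 3. These values rest on 42, 57 and 81 reads in control and on 244, 49 and 215 reads in L7 libraries. L7 replicates 1 and 3 lay above every control library, and L7 replicate 2 lay among them. The means were 0.708 ± 0.170 FPKM (SD, n = 3) and 2.02 ± 1.23 FPKM (SD, n = 3), 2.86 times as high in L7 libraries, and the limma log2 difference of 0.73 ± 0.34 (SE) had an unadjusted p of 0.0671 and an adjusted p of 0.580. This was the smallest unadjusted p among the 9 tested markers. The difference was 0.50 without L7 replicate 1 and 0.55 without L7 replicate 3. Leaving out L7 replicate 2, the L7 library that lay among the controls, gave 1.13. In that limma fit its unadjusted p was 0.000997 and its adjusted p 0.470, and 1226 of 14760 genes had an unadjusted p under 0.05. Because the library left out was the one among the controls, this unadjusted p carries no weight as a test. The limma adjusted p was 0.432 without L7 replicate 1 and 0.796 without L7 replicate 3.

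Folr2 (ENSMUSG00000032725, chr7:101839988-101857194, minus strand) encodes folate receptor beta. It was at 3.92, 2.81 and 3.93 FPKM in control replicates 1, 2 and 3 and at 5.15, 2.46 and 3.40 FPKM in L7 replicates 1, 2 and 3, with the L7 libraries on both sides of the control libraries. The means of 3.56 ± 0.642 FPKM (SD, n = 3) and 3.67 ± 1.37 FPKM (SD, n = 3) gave a limma log2 difference of 0.01 ± 0.24 (SE) with an adjusted p of 0.992. The sign of this difference turned in 5 of its 13 alternatives, the lowest being -0.21 without L7 replicate 1. In the annotation 63.1% of its exonic bases overlap exons of the opposite-strand gene Gm10602, so reads from the shared bases may not have been told apart.

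Lyve1 (ENSMUSG00000030787, chr7:110850607-110863239, minus strand) encodes a hyaluronan receptor. It was at 0.984, 1.5 and 1.1 FPKM in control replicates 1, 2 and 3 and at 0.805, 0.757 and 1.61 FPKM in L7 replicates 1, 2 and 3, from 29 to 63 reads per library. L7 replicate 3, the lowest library for the abundant macrophage markers, was the highest for Lyve1, while L7 replicates 1 and 2 lay below every control library. The means were 1.20 ± 0.270 FPKM (SD, n = 3) and 1.06 ± 0.479 FPKM (SD, n = 3), with a limma log2 difference of -0.12 ± 0.21 (SE) and an adjusted p of 0.779. The difference was -0.30 without L7 replicate 3, and it was -0.014 without L7 replicate 2, -0.020 without control replicate 2 and -0.034 without L7 replicate 1. Of the 8 lymphatic endothelium genes, 5 were tested and 4 of these were lower in L7 libraries, where 70.8% of all genes were. Prox1, the regulator of lymphatic identity, was at 1.26 to 2.19 FPKM in control and 0.898 to 1.70 FPKM in L7 libraries. Flt4, the receptor of VEGF-C, was at 1.79 to 2.72 FPKM and 1.94 to 2.44 FPKM, and the chemokine gene Ccl21a was at 0 FPKM in 3 of the 6 libraries. Pdpn and Fxyd6 were the most abundant of these genes, and the summed FPKM of the list was 123 to 146 in control and 110 to 127 in L7 libraries. How much of the Lyve1 level came from lymphatic vessels was not tested.

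Timd4 (ENSMUSG00000055546, chr11:46810800-46844332, plus strand) encodes TIM4, a receptor for phosphatidylserine on dying cells. It was at 0.154, 0.166 and 0.392 FPKM in control replicates 1, 2 and 3 and at 0.0207, 0.289 and 0.413 FPKM in L7 replicates 1, 2 and 3. These values stand for 7, 7 and 21 reads in control and 1, 13 and 19 reads in L7 libraries, and both groups held a high library. No difference between the groups was detectable at this depth, and the means were 0.237 ± 0.134 FPKM (SD, n = 3) and 0.241 ± 0.20 FPKM (SD, n = 3).

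**Figure D2:**
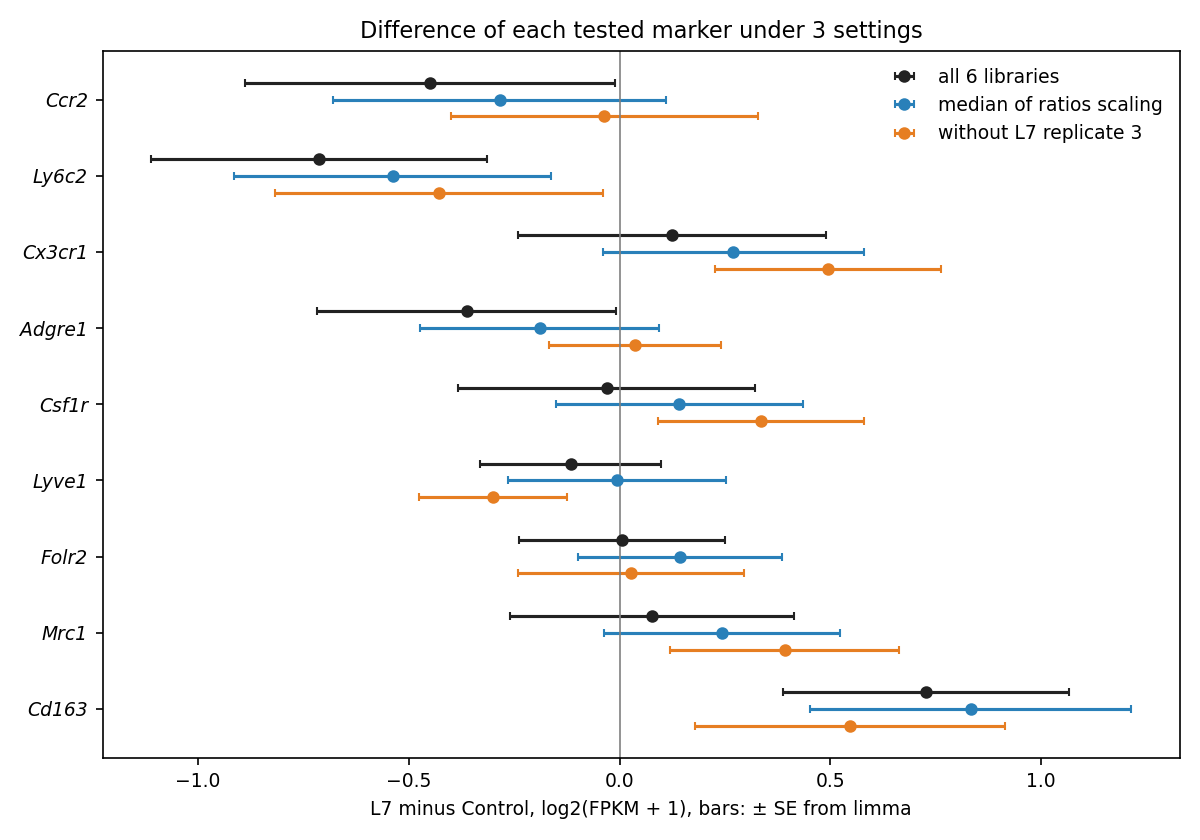
Log2 difference of each tested marker, L7 minus control on the log2(FPKM + 1) scale, with the SE from limma as bars, for all 6 libraries, for median of ratios scaling and without L7 replicate 3. Ly6c2 lies below 0 and Cd163 above 0 in all 3 settings, and Adgre1 and Csf1r change sign when L7 replicate 3 is left out.

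The balance of monocyte to resident markers was taken in each library as the mean log2(FPKM + 1) of Ccr2 and Ly6c2 minus that of Mrc1, Folr2, Cd163, Lyve1 and Timd4. This log ratio was 4.71, 4.48 and 5.57 in control replicates 1, 2 and 3 and 4.40, 4.75 and 3.45 in L7 replicates 1, 2 and 3. It was highest in control replicate 3 and lowest in L7 replicate 3, and the other 4 libraries lay close together with the groups mixed. The means were 4.92 ± 0.58 (SD, n = 3) in control and 4.20 ± 0.67 (SD, n = 3) in L7 libraries, a difference of -0.72, which is similar to the spread between libraries of a group. It has no test, because the markers were chosen with results of these data known. The mean of the monocyte markers differed by -0.58 and that of the resident markers by 0.14. Among the resident markers tested, the limma log2 difference was 0.73 for Cd163, against 0.08 for Mrc1, 0.01 for Folr2 and -0.12 for Lyve1. The resident mean thus rose mainly through Cd163, a gene at 42 to 244 reads per library. The log ratio difference was -0.57 without Cd163, a setting chosen after seeing the data. It was -0.34 without L7 replicate 3 and -0.39 without control replicate 3.

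In linear terms, summed Ccr2 and Ly6c2 exceeded the summed resident markers 9.95, 11.3 and 19.3 times in control replicates 1, 2 and 3 and 5.90, 10.3 and 6.45 times in L7 replicates 1, 2 and 3. Here L7 replicate 1 joined L7 replicate 3 at the low end, and L7 replicate 2 lay between control replicates 1 and 2. Ly6c2 made up most of the monocyte sum, at 256 of 285 FPKM in control replicate 1 and 136 of 148 FPKM in L7 replicate 3. Mrc1 made up most of the resident sum, so this reading mainly sets Ly6c2 against Mrc1. Of the 10 pairs of a monocyte and a resident marker, 1 had groups that did not overlap. Ly6c2 per Mrc1 was 11.1, 13.5 and 21.8 in control replicates 1, 2 and 3 and 6.34, 10.9 and 9.08 in L7 replicates 1, 2 and 3, with control replicate 1 and L7 replicate 2 nearly equal. Of all genes tested, 8.41% had a level per Mrc1 with every L7 library below every control library. For Ccr2 per Mrc1 the groups overlapped, at 1.16 to 1.96 in control and 0.838 to 1.26 in L7 libraries. Set against Csf1r, a lineage marker, both monocyte markers had groups that did not overlap, a comparison chosen after its values were seen. Ly6c2 per Csf1r was 3.18, 3.31 and 4.66 in control replicates 1, 2 and 3 and 2.00, 2.31 and 2.56 in L7 replicates 1, 2 and 3. Ccr2 per Csf1r was 0.357, 0.286 and 0.419 in control replicates 1, 2 and 3 and 0.273, 0.267 and 0.237 in L7 replicates 1, 2 and 3, with control replicate 2 close to L7 replicate 1. Of all genes tested, 6.07% had a level per Csf1r with every L7 library below every control library. Against Adgre1 and Cx3cr1 the groups overlapped for both monocyte markers.

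**Figure D3:**
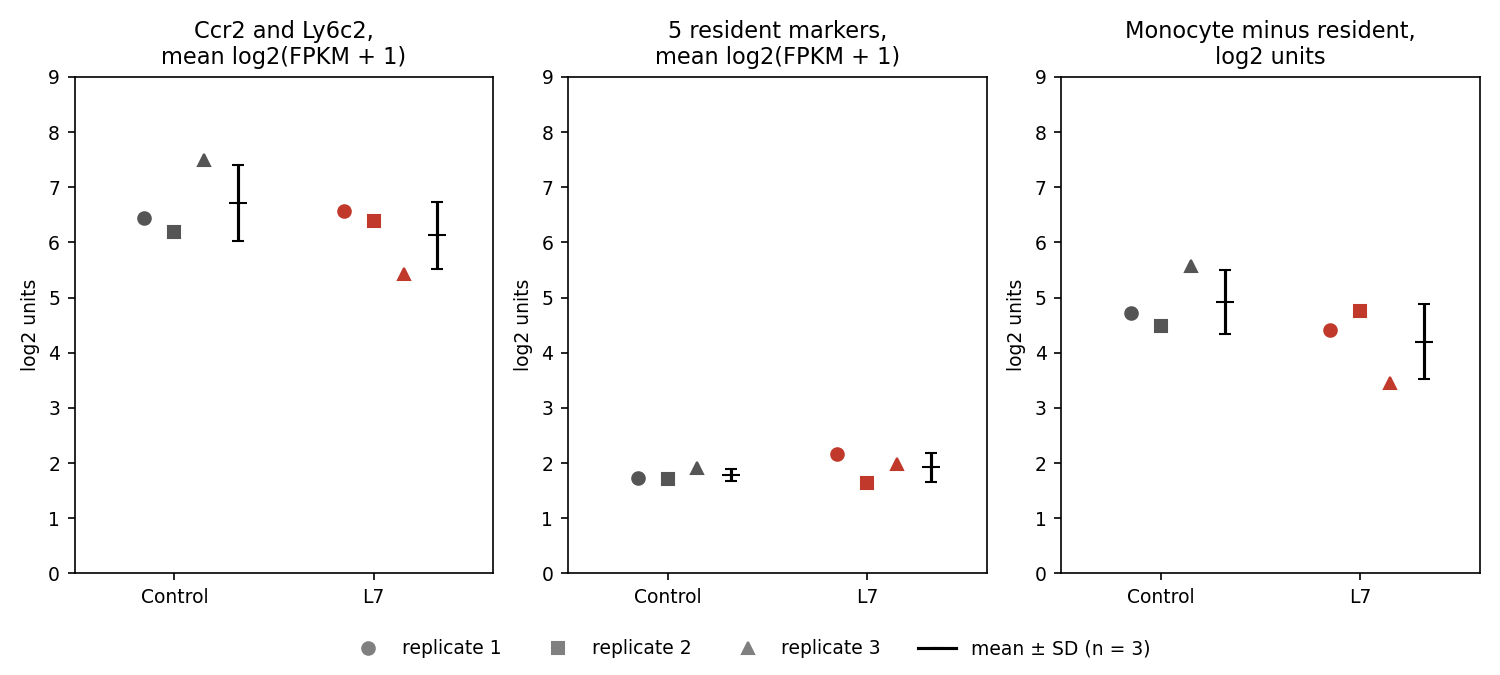
Mean log2(FPKM + 1) of Ccr2 and Ly6c2 (left), of the 5 resident markers (middle) and their difference, the log ratio (right), by library, with the mean and SD of each group. The monocyte markers vary from 5.43 to 7.49 and the resident markers from 1.64 to 2.16, and the log ratio of 4 of the 6 libraries lies between 4.40 and 4.75.

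The markers were also read against the 18 general macrophage genes in each library, as log2(FPKM + 1) minus the mean of those genes. That mean was 8.14, 7.95 and 8.53 in control and 8.29, 8.06 and 7.14 in L7 replicates 1, 2 and 3, so L7 replicate 3 was the lowest. The log2 differences of the 18 genes ran from -0.75 (Fcgr1) to -0.02 (C1qa). How far their mean stands for macrophages alone was not tested. On this scale the low Ccr2 of L7 replicate 3 was within the range of the other libraries, at -3.38 against -3.50 to -2.77, and so was its Ly6c2, at -0.05 against -0.31 to 0.68. Adgre1 followed the general macrophage genes closely, at -1.46 to -1.21 in all 6 libraries. Csf1r was at -1.79, -1.75 and -1.53 in control and at -1.31, -1.33 and -1.39 in L7 libraries, each L7 value above each control value. Mrc1 was at -3.56, -3.71 and -3.71 in control and at -2.95, -3.52 and -3.15 in L7 libraries, again without overlap, though L7 replicate 2 was only slightly above control replicate 1. These were 2 of the 10 markers, where 2.71% of all genes tested had every L7 library above every control library on this scale. Lyve1, Timd4, Folr2 and Cd163 were highest in L7 replicate 3 on this scale, where the pseudocount of 1 weighs on genes at such low levels.

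**Figure D4:**
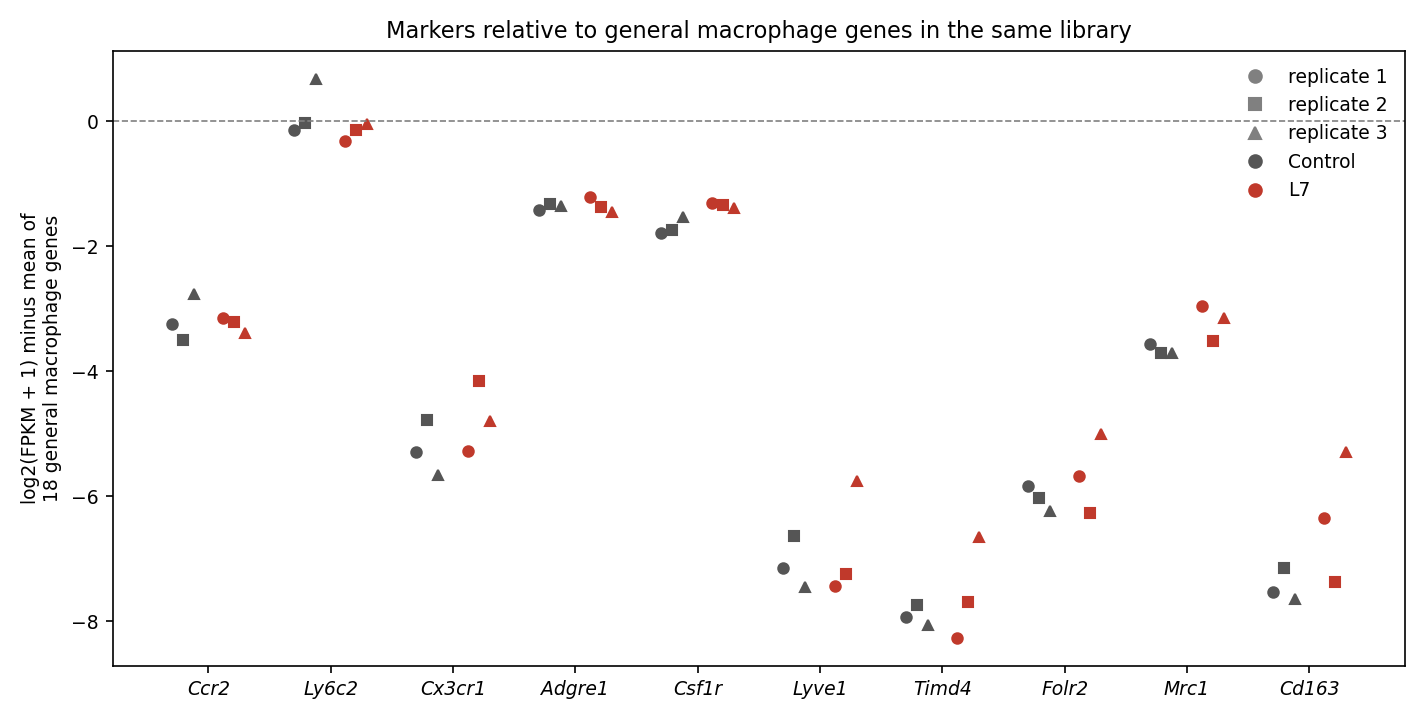
Each marker's log2(FPKM + 1) minus the mean of 18 general macrophage genes in the same library (vertical axis, log2 units), control in grey and L7 in red. Csf1r and Mrc1 have every L7 point above every control point, Adgre1 stays between -1.46 and -1.21, and the other markers overlap.

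Other genes of these cells gave the setting of the markers. All 15 other monocyte genes had a limma log2 difference below 0, where 70.8% of all genes did, and 0 passed the test. Their median log2 difference was -0.69 beside -0.15 over all genes. By mean FPKM, Chil3 (46.7 in control, 50.2 in L7) and F13a1 (10.4 and 10.8) were slightly higher in L7 libraries. With median of ratios scaling 14 of the 15 were lower and 1 higher, with a median of -0.53. Without L7 replicate 3, 11 of the 15 were lower and 4 higher, with a median of -0.23 beside -0.03 over all genes. Plac8, a gene high in inflammatory monocytes, was at 474 ± 145 FPKM for control and 261 ± 83.7 FPKM for L7 (SD, n = 3 each), without overlap, with a limma log2 difference of -0.87 ± 0.31 (SE), an unadjusted p of 0.0258 and an adjusted p of 0.580. It was the 1 gene of the 15 without overlap, where 13.7% of all genes tested had L7 below without overlap. Fn1, the fibronectin gene that monocytes share with fibroblasts, was at 581 ± 160 FPKM (SD, n = 3) and 476 ± 177 FPKM (SD, n = 3). The 18 general macrophage genes all had log2 differences below 0 too, with a median of -0.41 and 0 past the test. By mean FPKM, Lyz2 was slightly higher in L7 libraries, at 1492 against 1458 in control. With median of ratios scaling 14 of the 18 were lower and 4 higher, with a median of -0.24. Without L7 replicate 3 the 18 split into 10 lower and 8 higher with a median of -0.05. Of the 8 genes of non-classical, patrolling monocytes, 4 were higher and 4 lower, with a median of 0.04. With median of ratios scaling these 8 genes again split into 4 higher and 4 lower. Without L7 replicate 3, 6 were higher and 2 lower with a median of 0.13. With scaling and without L7 replicate 3, a setting chosen after seeing the data, 8 were higher and 0 lower with a median of 0.16. That setting gave 5 higher and 10 lower for the other monocyte genes and 8 higher and 10 lower for the general macrophage genes. Nr4a1, which that subset needs and which other cells switch on under stress, was at 17.8, 23.2 and 24.0 FPKM in control and at 31.8, 30.7 and 64.2 FPKM in L7 libraries, with an unadjusted limma p of 0.0208. Cd36 of that list was highest in L7 replicate 3 too, at 68.7 FPKM against 33.8 to 38.9 elsewhere, and muscle and endothelium also make it.

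The list of other resident macrophage genes had a median above that of all genes. Of the 23 listed, 14 were tested, of which 9 were higher and 5 lower in L7 libraries, 0 passed the test and the median was 0.09. Without L7 replicate 3, 12 were higher and 2 lower, with a median of 0.24 beside -0.03 over all genes. Selenop, a selenium carrier made by tissue macrophages and other cells, was at 437 ± 45.0 FPKM (SD, n = 3) and 488 ± 139 FPKM (SD, n = 3). Pf4, a chemokine shared with platelets, was at 170 ± 43.5 FPKM (SD, n = 3) and 145 ± 83.6 FPKM (SD, n = 3). The other 9 listed genes, such as Cd209b and Ccl24, were under a mean of 1 FPKM.

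The ligands of these receptors were mostly lower in L7 libraries. Of 8, the growth factor gene Csf2 was under 1 FPKM, and of the 7 tested 6 were lower and 1 higher, where 70.8% of all genes were lower. Their median was -0.59 with 0 past the test, and 6 were lower and 1 higher without L7 replicate 3 as well. Ccl8 is on this list and on that of other resident macrophage genes. Ccl2, the main ligand of CCR2, was at 212, 135 and 203 FPKM in control replicates 1, 2 and 3 and at 146, 69.1 and 37.5 FPKM in L7 replicates 1, 2 and 3. L7 replicate 1 lay above control replicate 2 and the other libraries did not cross, and the limma log2 difference was -1.30 ± 0.46 (SE) with an unadjusted p of 0.0236. Ccl7, another ligand of CCR2, was at 243, 185 and 280 FPKM in control and at 172, 101 and 58.3 FPKM in L7 libraries, without overlap, with an unadjusted limma p of 0.0139. For the ligands of CSF1R, Csf1 was at 71, 58.0 and 78.4 FPKM in control and 58.1, 60.9 and 29.9 FPKM in L7 libraries. Il34 was the 1 ligand that was higher, at 6.58 to 7.08 FPKM in control and 7.37 to 10.0 FPKM in L7 libraries without overlap, and its unadjusted limma p was 0.0858. Of the 7 tested ligands, 1 was thus without overlap with L7 below and 1 with L7 above, where 13.7% and 5.49% of all genes were.

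Cells that share markers with monocytes were measured beside them. Neutrophil genes were lower in 5 of 6 tested, where 70.8% of all genes were, with a median of -0.69 that was -0.089 without L7 replicate 3. S100a8 and S100a9, which monocytes also make, were lowest in L7 replicate 3 at 16.1 and 10.9 FPKM against 45.5 to 119 and 48.5 to 105 elsewhere. Ly6g, the defining neutrophil marker, was under 1 FPKM in every library. Genes of natural killer and T cells were lower in 6 of 8, with a median of -0.31, and leaving out L7 replicate 3 left 5 lower and 3 higher (median -0.13). Nkg7 of cytotoxic cells was highest in control replicate 3 at 49.3 FPKM, the library with the highest Ly6c2. Dendritic cell genes were lower in 4 of 5 tested, with a median of -0.28, but without L7 replicate 3 they were lower in 2 and higher in 3, with a median of 0.0026. Ccr7 was at 10.9 FPKM in control replicate 3 and at 2.98 to 8.20 elsewhere. The blood endothelium genes, which could carry Ly6C signal, had 4 higher and 4 lower and a median of -0.03. With median of ratios scaling 7 were higher and 1 lower (median 0.14), and without L7 replicate 3, 2 were higher and 6 lower (median -0.13). Cdh5 was at 71.9 ± 12.4 FPKM (SD, n = 3) and 72 ± 2.83 FPKM (SD, n = 3). The 9 muscle fibre genes were all higher in L7 libraries, with a median of 0.99, and 0.40 with median of ratios scaling and without L7 replicate 3. The part of the fibre content in the marker levels was not tested.

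**Figure D5:**
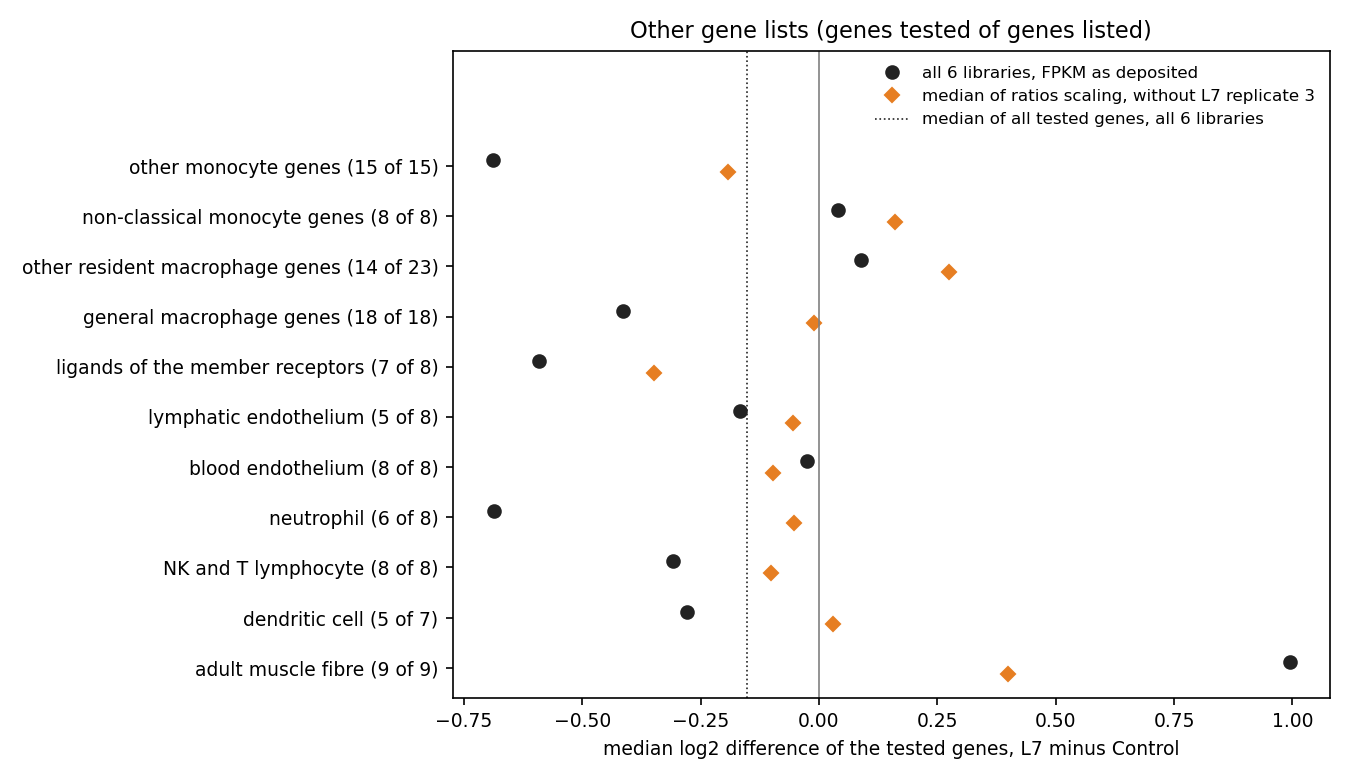
Median log2 difference, L7 minus control, of the tested genes of each list, for all 6 libraries on FPKM as deposited (circles) and with median of ratios scaling without L7 replicate 3 (diamonds). The dotted line is the median of all tested genes for the circles, at -0.15, and in the setting of the diamonds that median was -7.2e-05. The monocyte list moves from -0.69 to -0.19 while the resident list lies at 0.09 and 0.27.

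The genes with the levels most like Ccr2 over the 6 libraries, by Pearson correlation of log2(FPKM + 1), were Ripor2 (r = 0.997), Zdhhc18 (0.996), C1qb (0.995), Yju2 (0.995) and Rasgrp4 (0.993). Among them C1qb, a complement subunit of macrophages, was at 583, 531 and 756 FPKM in control and 644, 610 and 438 FPKM in L7 libraries. For Lyve1 they were mt-Rnr1 (r = 0.991), Cradd (0.974), Cox4i2 (0.971), Dtwd2 (0.965) and Dcbld1 (0.958), none of them on the lists of macrophage or lymphatic genes. These correlations describe 6 libraries that share their preparation, chosen as the highest of 14788 genes tested, and they carry no test.

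The authors' deposited table, which compares the groups on read counts, gave an adjusted p of 1 for all 10 markers. In the authors' deposited table Cd163 had the smallest unadjusted p, 0.0612, with a level 3.33 times as high in L7 libraries, and Ly6c2 was at 0.629 of its control level with an unadjusted p of 0.263. In the same deposited table Ccr2 was at 0.782 of its control level, Mrc1 at 1.23, Csf1r at 1.10 and Lyve1 at 1.05. For Csf1r and Lyve1 this is the other direction than the limma log2 differences of -0.03 and -0.12.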

How the data were processed

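Per the file headers and name, the authors deposited 1 FPKM value per gene and library, and a comparison of the groups with mean normalised signal (reads divided by size factors), log2 fold change and p-values. The submitters' processing notes name mm10, DESeq 1.12.0, HISAT2 2.0.4, TopHat2 2.0.12 and Bowtie2 2.2.3, with no roles. Not given in the sources used here are the counting program and its strand setting. Symbols for 51633 genes and coordinates came from GENCODE M21 (mm10), by Ensembl identifier. Low FPKM steps and the deposited group means gave back reads, and 152096 of 152096 values above 0 (100%) were within 0.05 of a whole number. These reads give the depth of 19420012 to 24663153 per library and entered limma voom as an alternative.

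The test was limma 3.58.1 (R 4.3.3, mean-variance trend, two-sided) on log2(FPKM + 1), group as the only factor, for 14788 genes with a mean of at least 1 FPKM. It was also run on simulated reads without a library unlike the rest, which does not show how it performs on these data. With 3 libraries a group, no exact permutation p can be below 0.1. Same-numbered libraries deviated with correlations of 0.32, -0.07 and 0.09 over genes, and libraries of unlike number with -0.35 to 0.22. With 3 libraries a group these values cannot exclude pairs, and the reported fit did not treat the numbers as pairs. Alternatives were the pseudocount, the filter, median of ratios scaling, array weights, a replicate block, voom and each library left out. The rule for named genes took the 10 markers, Ly6c1, in each list the 2 genes of highest mean FPKM and any that passed, and the 5 genes most like Ccr2 and Lyve1. Other list genes were named after their values were seen. Members and lists were chosen with earlier results of these data known. Python 3.11.15, pandas 2.3.3, numpy 2.4.6, matplotlib 3.10.9 and Biopython 1.88 made tables and figures. Enrichment tables were not used.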

Additional observations from a re-analysis of the deposited data

How the results depend on the processing

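None of the 9 tested markers and none of the list genes passed limma in any of the 13 alternatives to the reported fit. Over all genes the count was 0 in the reported fit, 3 with array weights, 1 with median of ratios scaling without L7 replicate 3 (chosen after seeing the data) and 0 to 1 over the fits that left out 1 library. With the replicate block 0 genes and 0 markers passed, and the block left every marker's difference at its reported value. Ly6c2 (-0.94 to -0.24), Lyve1 (-0.30 to -0.0059) and Cd163 (0.50 to 1.25) kept their sign in all 13 alternatives. For Lyve1 the sign was still not settled. With median of ratios scaling its mean FPKM was 1.14 in control and 1.20 in L7 libraries, and the authors' comparison had it at 1.05 of its control level. The sign turned for Ccr2 with array weights (0.085; -0.74 to -0.04 over leave-one-out fits), and for Adgre1 with array weights (0.055), with median of ratios scaling without L7 replicate 3 (0.073) and over leave-one-out fits (-0.66 to 0.037). For Csf1r it turned with median of ratios scaling (0.14), array weights (0.41), scaling without L7 replicate 3 (0.37) and over leave-one-out fits (-0.28 to 0.34). For Folr2 it turned with a pseudocount of 0.1 (-0.0022), array weights (-0.013), voom (-0.0057) and over leave-one-out fits (-0.21 to 0.20), and for Cx3cr1 and Mrc1 over leave-one-out fits only (-0.28 to 0.49 and -0.28 to 0.39). The cause was not tested. The log ratio difference of -0.72 ranged from -0.99 to -0.34 when 1 library was left out and was -0.83 from summed FPKM, -0.76 with a pseudocount of 0.1, -0.66 with median of ratios scaling, -0.59 with Ccr2 alone, -0.75 without Timd4 and -0.78 without Lyve1, and, chosen after seeing the data, -0.66 against Mrc1 alone and -0.57 without Cd163. As differences within replicate number it was -0.31, 0.27 and -2.12. Timd4, at 1 to 21 reads per library, limits what can be seen of it.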
